A study of Mus musculus with 18 samples.

Results

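The microglia and macrophage genes described here are a set of 35 genes, of which 34 were found on the array. A probe set was taken as a member when the only gene symbol that the array's annotation gave it was in the set. The 34 genes had 54 probe sets, out of 12393 genes with such a probe set on the array. Homeostatic and lineage genes, which resident microglia carry in healthy tissue, make up 21 of the 35. The other 14 are activation genes, and 1 of these, Spp1, was not analysed here.

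RNA came from the oculomotor nucleus, the midbrain nucleus of the eye-moving motor neurons, and from the cervical spinal cord. Mice of a model of amyotrophic lateral sclerosis (ALS), labelled mutant, were sampled at 6 and at 10 weeks of age, and mice labelled control at 10 weeks. The labels attach the words ALS model to all groups, controls included, and give neither the mutation, the strain nor any pooling of animals. The study asked how a motor region spared by ALS differs from one that the disease affects. Each region and condition has 3 arrays, except that control spinal cord replicate 1 was left out, so that this group has 2.

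Microglia are the resident macrophages of the brain and spinal cord. Their survival depends on the receptor Csf1r, their identity on the transcription factors PU.1 (Spi1) and Irf8, and they sense neurons through the fractalkine receptor Cx3cr1. In neurodegeneration they can lower homeostatic genes such as Cx3cr1 and raise phagocytic, lysosomal and lipid genes such as Cst7, Itgax, Clec7a and Lpl. The full rise of the latter genes requires the receptor Trem2, whose adaptor is Tyrobp.

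The left-out array correlated with the others at 0.0104 to 0.0143 across probe sets, against 0.957 to 0.985 among the 17 arrays used. Median signals of these 17 ran from 207 to 226. The tissue labels were checked by markers: the summed signal of 5 Hox genes of spinal position was 127 to 346 in the oculomotor arrays and 5092 to 6443 in the spinal cord arrays. Genes of midbrain monoamine neurons summed to 6058 to 9732 and to 612 to 879. Motor neuron genes (4 of 5 listed on the array) summed to 404 to 610 in the oculomotor arrays and 1353 to 1700 in spinal cord. Whether the arrays of a group come from separate animals is not stated, so the tests refer to the scatter among these arrays, which may be technical, and precision is limited by how few there are.

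Values are Affymetrix MAS5 signals, scaled so that every array has the same trimmed mean, and their sizes are not compared between probe sets. Differences are on the log2(signal + 25) scale, given with their standard error (SE), and understate the change of dim genes. A gene is called when its brightest probe set (highest mean over arrays) has a Benjamini-Hochberg adjusted p below 0.05 in limma. The test covered 13576 probe sets and 8072 named genes, and the dimmest 40% of probe sets were not tested. That filter kept 23 of the 34 members, 15 homeostatic and 8 activation genes. The 11 below it were Aif1, Itgam, Itgax, Ptprc, Cd52, Trem2, Clec7a, Cyba, Cst7, Spi1 and Irf8. Aif1 lay just below the limit of 7.38 with a mean log2 value of 7.37, and Fcgr3 just above it with 7.48. Fcgr3 was the 1 tested member whose mean fell below the limit, to 7.36, when a group was left out, namely 10-week mutant spinal cord, where it was high. It was thus tested only through that group, and its values there are a description only. Dim activation genes are thus under-represented among the tested members.

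All 3 marker genes had signal well above the added 25 on every array. Csf1r, the receptor for the growth factors CSF1 and IL-34, gave 1631 to 3668, and Tyrobp, the signalling adaptor of Trem2, gave 238 to 756. Cx3cr1 gave 254 to 892. Several classical members were dim: Aif1, which encodes the microglial stain Iba1, gave 91.1 to 205, and the leukocyte phosphatase gene Ptprc (CD45) gave 66.6 to 191.

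**Figure D1:**
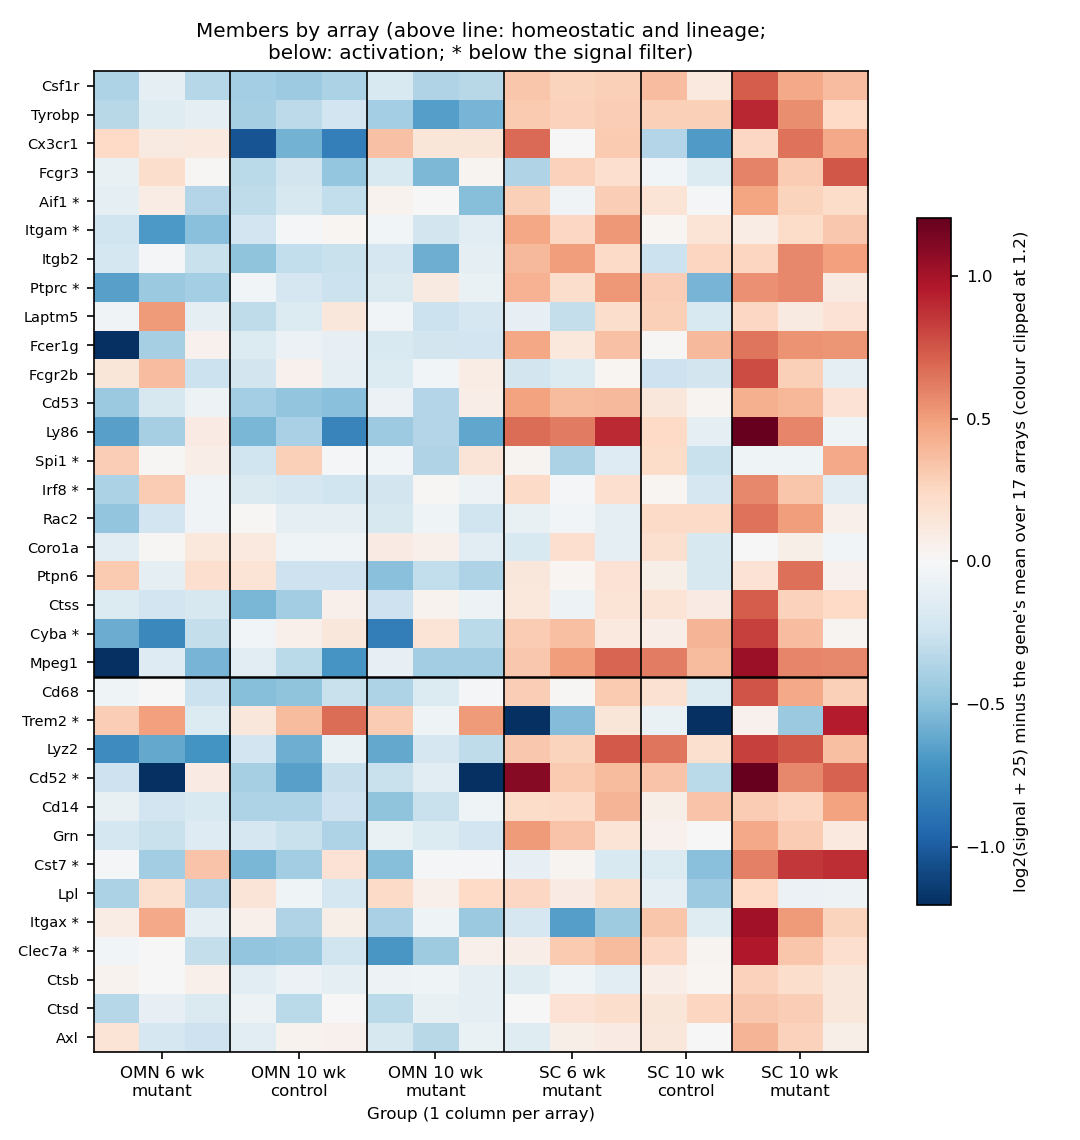
Each row is a member, each column an array in its group (OMN, oculomotor nucleus; SC, spinal cord), and colour is log2(signal + 25) minus the gene's mean over the 17 arrays. Most rows are blue in the oculomotor columns and red in the spinal cord columns, most of all in 10-week mutant spinal cord, while Cx3cr1 is blue in both control groups.

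Proximal promoters of the members were read from RefSeq (GRCm38.p6) to show the sequence in front of genes that the results turn on. RefSeq promoters matched 25 of the 34 members. The 250 bases before the start of Cd53 and Lyz2, lower in the oculomotor nucleus in all 3 conditions, of Cx3cr1, higher in mutants, and of the activation gene Clec7a are given 5′ to 3′ on the gene's strand. Capitals mark GAGGAA, the core of sites for PU.1, searched on both strands.
Cx3cr1, chr9:120068297-120068546, minus strand: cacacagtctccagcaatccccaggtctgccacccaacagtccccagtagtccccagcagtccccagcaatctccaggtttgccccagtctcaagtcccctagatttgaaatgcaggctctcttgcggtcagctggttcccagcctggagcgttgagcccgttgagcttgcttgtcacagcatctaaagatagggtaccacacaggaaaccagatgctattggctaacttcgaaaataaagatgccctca
Cd53, chr3:106790150-106790399, minus strand: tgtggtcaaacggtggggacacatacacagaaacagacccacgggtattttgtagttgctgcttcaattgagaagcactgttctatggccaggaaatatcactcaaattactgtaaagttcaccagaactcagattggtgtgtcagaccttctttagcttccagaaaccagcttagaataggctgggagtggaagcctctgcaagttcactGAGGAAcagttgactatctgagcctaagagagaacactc
Lyz2, chr10:117282273-117282522, minus strand: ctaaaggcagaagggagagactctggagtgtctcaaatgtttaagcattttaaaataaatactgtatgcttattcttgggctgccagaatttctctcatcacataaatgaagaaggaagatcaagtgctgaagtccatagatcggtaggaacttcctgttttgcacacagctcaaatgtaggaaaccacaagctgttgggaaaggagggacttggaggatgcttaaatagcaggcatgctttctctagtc
Clec7a, chr6:129472786-129473035, minus strand: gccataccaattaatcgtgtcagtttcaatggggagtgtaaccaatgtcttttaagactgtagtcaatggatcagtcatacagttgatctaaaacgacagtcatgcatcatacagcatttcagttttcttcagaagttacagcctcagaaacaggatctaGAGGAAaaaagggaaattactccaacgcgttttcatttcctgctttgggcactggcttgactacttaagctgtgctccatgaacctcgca
Cd53 has GAGGAA 39 bases before the start. Clec7a has it 90 bases before. The letters are in neither the Cx3cr1 nor the Lyz2 window. GAGGAA was present in 12 of 25 member promoters (48.0%), and in 25.9% of 27025 genes with a promoter. A match describes the letters only, and factor binding was not measured.

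Against spinal cord, some microglial genes had called lower signals in the oculomotor nucleus in each condition, and none of the 23 tested members was called higher there by its brightest probe set. In 6-week mutants 11 of 23 were called lower, where 12.4% of all genes tested were called lower and 12.6% higher. In 10-week controls 5 of 23 were called lower (all genes 8.08% lower, 6.89% higher), and in 10-week mutants 17 of 23 (all genes 11.2% lower, 9.33% higher). Without Fcgr3 the last count was 16 of 22, and without the filter the counts were 14, 5 and 21 of 34. In that fit without the filter, 899, 562 and 801 of the 8072 genes past the filter were called lower. The median log2 difference of the members, oculomotor nucleus minus spinal cord, was -0.33, -0.31 and -0.57 in these conditions, while the median of all genes was 0.04, -0.00 and -0.01. In whole tissue, fewer microglia, less RNA per microglial cell and a different content of other cells cannot be told apart.

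Both homeostatic and activation genes were among the called members. Of the 15 homeostatic members 7, 3 and 10 were called lower in 6-week mutants, 10-week controls and 10-week mutants, with medians of -0.27, -0.31 and -0.69. Fcgr3 is among the 10. Of the 8 activation members 4, 2 and 7 were called, with medians of -0.35, -0.32 and -0.45. Arrays of both regions did not overlap, with spinal cord higher, for 13, 16 and 19 members, against 17.8%, 23.8% and 20.1% of all genes. The 19 include Fcgr3. The control comparison has 2 spinal cord arrays. Its count fell to 2 without control oculomotor replicate 2 and also without either spinal cord array.

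**Figure D2:**
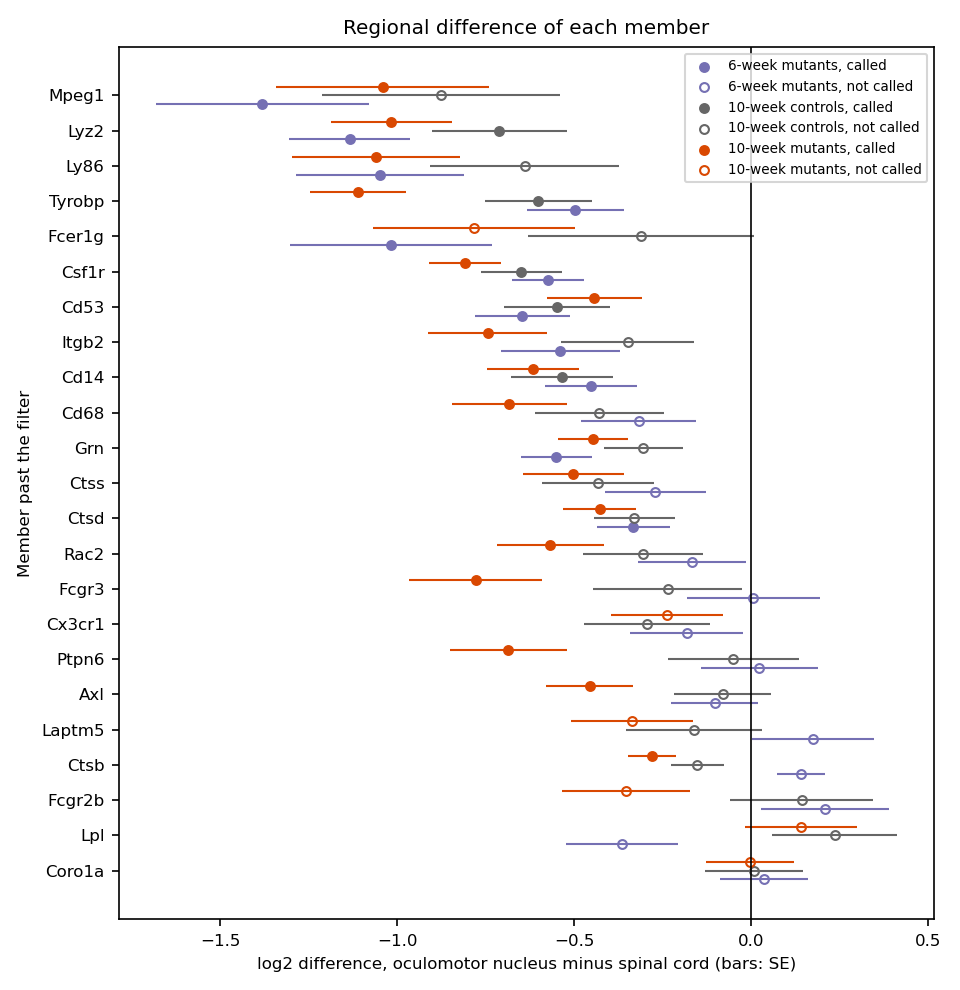
Each row is a tested member, and each point its log2 difference, oculomotor nucleus minus spinal cord, in 1 condition, with the SE as a bar and filled points for called differences. Most points lie left of 0, and filled points of all 3 colours appear for Lyz2, Tyrobp, Csf1r, Cd53 and Cd14.

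Csf1r, Tyrobp, Cd53, Lyz2 and Cd14 were called lower in all 3 conditions, as were 5.25% of all genes. Averaged over the conditions, 16 of 23 members, Fcgr3 among them, were called lower, against 19.1% of all genes. The other 7 were Cx3cr1, Fcgr2b, Laptm5, Coro1a, Ptpn6, Lpl and Ctsb.

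Leaving out 1 array at a time, Csf1r stayed called in all 3 conditions, and the calls that were lost kept their direction. In 6-week mutants Tyrobp (adjusted p = 0.0510), Itgb2 (0.0638) and Ctsd (0.0954) were lost in limma without oculomotor replicate 1, Cd14 (0.0537) without replicate 2 and Itgb2 (0.0791) without replicate 3. Spinal cord replicate 1 held the calls of Fcer1g (0.0526) and Itgb2 (0.0668), replicate 2 those of Itgb2 (0.0906) and Ctsd (0.0715), and replicate 3 those of Cd14 (0.0695) and Ctsd (0.0874). In controls Tyrobp (0.0895), Cd53 (0.160) and Lyz2 (0.279) were lost without spinal cord replicate 2. Without spinal cord replicate 3, Tyrobp (0.0635), Cd53 (0.0615) and Cd14 (0.195) were lost, and without oculomotor replicate 2, Cd53 (0.0509), Lyz2 (0.0840) and Cd14 (0.0549). Oculomotor replicate 1 held the control call of Cd14 (0.0553). In 10-week mutants spinal cord replicate 1 held those of Cd53 (0.0926), Rac2 (0.0762), Ctss (0.114), Mpeg1 (0.0903) and Axl (0.0701), and replicate 2 that of Cd53 (0.0774). Oculomotor replicate 2 held those of Cd53 (0.130), Mpeg1 (0.0615) and Axl (0.0642), replicate 1 those of Cd53 (0.0540) and Ctss (0.0874), and replicate 3 that of Mpeg1 (0.0612). Calls were also gained, by Lpl (0.0163 without oculomotor replicate 2) in 6-week mutants, and by Ctss (0.00874) and Ctsd (0.0422) in controls without oculomotor replicate 3. In controls Mpeg1 passed without 6-week mutant oculomotor replicate 1 (0.00668) or 2 (0.0499), and Ctss without 10-week mutant spinal cord replicate 1 (0.0456). In 10-week mutants Fcgr2b passed without spinal cord replicate 3 (0.0281) and Fcer1g without 6-week oculomotor replicate 1 (0.000954) or 3 (0.0240). For the mean over conditions the call of Axl was lost without any of 8 arrays (adjusted p of at most 0.0890 in limma) and that of Fcgr3 without any of 3 (at most 0.0687). Cx3cr1 passed without any of 4 arrays (0.0160 to 0.0401), Ptpn6 without any of 3 (0.0326 to 0.0471) and Ctsb without 10-week mutant spinal cord replicate 3 (0.0481).

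Among receptors and adaptors, Csf1r stood lower in the oculomotor nucleus on every array. Its oculomotor signals were 1698, 2032 and 1738 in 6-week mutants, 1656, 1631 and 1696 in controls, and 1948, 1712 and 1749 in 10-week mutants. Its spinal cord signals were 2789, 2665 and 2706, then 2861 and 2399, then 3668, 3034 and 2872. The lowest spinal cord array lay above the highest oculomotor array. The mean regional difference was -0.68 ± 0.06 (limma adjusted p = 6.05e-08), and both other Csf1r probe sets were also called lower, by -0.51 and -0.47.

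In 10-week mutants Tyrobp had the largest regional difference of the tested members. Its oculomotor signals were 306, 351 and 358 in 6-week mutants, 290.0, 310.1 and 329 in controls, and 289, 238 and 258 in 10-week mutants. In spinal cord they were 493, 481 and 487, then 484 and 481, then 756, 587 and 467. The regions did not overlap, and the 10-week mutant arrays were the lowest oculomotor arrays. The differences were -0.50 ± 0.14, -0.60 ± 0.15 and -1.11 ± 0.14, with limma adjusted p-values of 0.0122, 0.0114 and 1.10e-05. The step from -0.60 to -1.11 between controls and mutants did not pass the test of the difference (adjusted p = 0.747).

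Other receptors differed less evenly. Fcer1g, the shared gamma chain of Fc receptors, was called lower in 6-week mutants (-1.02 ± 0.29), where its first oculomotor array read 36.8 against 133 and 191 on the other 2. Without that array the difference was -0.49 (adjusted p = 0.0402 in limma). Fcgr3, an activating receptor for IgG, had -0.78 ± 0.19 in 10-week mutants, through whose spinal cord arrays it passed the filter, and 0.01 ± 0.19 in 6-week mutants. The inhibitory receptor Fcgr2b was not called in any condition (0.21, 0.14 and -0.35). Cx3cr1 was not called either (-0.18, -0.29 and -0.24), so it was the marker gene without a regional call. Its dimmer probe set, below the filter, had -0.87, -0.11 and -0.60, of which the first was called without the filter (adjusted p = 0.0167 in limma).

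The integrin chain Itgb2 (CD18), which pairs with Itgam and Itgax, was called lower in both mutant comparisons. Its oculomotor signals were 138, 162 and 132, then 111, 129 and 133, then 139, 101 and 150.1, in the order used for Csf1r. The spinal cord arrays gave 224, 243 and 197, then 134 and 202, then 201, 258 and 241. Only a control spinal cord array (134) fell within the oculomotor range. The differences were -0.54 ± 0.17 and -0.75 ± 0.17 in mutants of 6 and 10 weeks (adjusted p 0.0256 and 0.00413 in limma) and -0.35 ± 0.19 in controls (adjusted p = 0.246). Itgam (CD11b), tested only without the filter, averaged -0.47 ± 0.10 (adjusted p = 0.00192 in limma), with signals of 47.0 to 92.9 in the oculomotor nucleus and 93.1 to 142 in spinal cord.

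Leukocyte membrane and signalling genes were split. Cd53, a tetraspanin of leukocytes, had oculomotor signals of 186, 227 and 252, then 192, 182 and 178, then 249, 200.4 and 279. Spinal cord gave 376, 349 and 352, then 292 and 270.0, then 361, 354 and 299. The regions did not overlap within any condition, and its mean difference was -0.55 ± 0.08 (limma adjusted p = 2.67e-05). Rac2, a small GTPase of blood-lineage cells, had oculomotor signals of 138, 168 and 195, then 203, 183 and 184, then 173, 194 and 166. In spinal cord Rac2 gave 188, 196 and 184, then 241 and 239.9, then 330.5, 295 and 212. The regions overlapped for Rac2 in 6-week mutants and not at 10 weeks. Rac2 was called in 10-week mutants (-0.57 ± 0.15) and so was the phosphatase SHP-1 gene Ptpn6 (-0.69 ± 0.17). Coro1a, an actin-binding protein gene, lay within 0.04 of 0 in each condition. Laptm5, a lysosomal membrane protein of blood-lineage cells, had 0.18, -0.16 and -0.34 by its brightest probe set and -0.94, -1.03 and -0.58 by another, which was called in the first 2 comparisons.

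Both lineage transcription factors were dim. Spi1 gave 87.7 to 177 and Irf8 91.9 to 202 on all arrays, both below the filter. Their mean regional differences without the filter were 0.05 ± 0.13 and -0.21 ± 0.12. Their regions overlapped, and neither was called in the mean regional comparison (adjusted p 0.844 and 0.221 in limma).

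Genes of pattern recognition were called lower as well. Ly86 (MD-1), the partner of a Toll-like receptor homologue, had oculomotor signals of 235, 286 and 412, then 256, 288 and 211, then 278, 296 and 241. The spinal cord signals of Ly86 were 628, 608 and 735, then 458 and 354, then 941, 591 and 369. The 10-week mutant spinal cord arrays were spread over this whole range. The differences were -1.05 ± 0.24, -0.64 ± 0.27 (not called) and -1.06 ± 0.24. Cd14, the co-receptor for bacterial lipopolysaccharide, had oculomotor signals of 251, 225 and 233, then 202, 203 and 222, then 186, 218 and 259. Spinal cord arrays read 316, 319 and 364, then 284 and 346, then 338, 326 and 386. All spinal cord arrays lay above all oculomotor arrays, with a mean difference of -0.53 ± 0.08. Mpeg1, the pore-forming perforin-2 gene, averaged -1.10 ± 0.18. Its first 6-week oculomotor array read 30.4, against 102 to 168 on the other oculomotor arrays.

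All 6 lysosomal members were called lower in 10-week mutants. Lyz2, the lysozyme of macrophages, had oculomotor signals of 209, 232 and 215, then 311, 238 and 348, then 232, 316 and 293. In spinal cord Lyz2 gave 466, 448 and 631, then 588 and 425, then 667, 636 and 481. Every spinal cord array exceeded every oculomotor array, and the differences were -1.13 ± 0.17, -0.71 ± 0.19 and -1.02 ± 0.17. Grn, which encodes the lysosomal protein progranulin, had oculomotor signals of 1611, 1558 and 1680.2, then 1624, 1557 and 1441, then 1774, 1675 and 1593. For spinal cord the values were 2678, 2385 and 2108, then 1943 and 1871, then 2575, 2314 and 2037. On this brightest Grn probe set no array overlapped, and Grn was called in both mutant comparisons (-0.55 ± 0.10 and -0.45 ± 0.10). A dimmer Grn probe set had means, oculomotor against spinal cord, of 740 against 917, 533 against 665 and 724 against 1009. The dimmest gave 540 against 604, 468 against 495 and 513 against 613. The macrosialin gene Cd68 (-0.68 ± 0.16) and the protease gene Ctss (-0.50 ± 0.14) were called in 10-week mutants, and Ctsd, another cathepsin, in both mutant comparisons (-0.33 and -0.43).

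Of the remaining activation genes, Axl, a receptor tyrosine kinase for apoptotic cells, was called in 10-week mutants. Its oculomotor signals were 944, 727 and 703, then 768, 864 and 872, then 729.7, 659.7 and 793. The spinal cord values were 758, 883 and 901, then 926 and 841, then 1123, 1021 and 883. The regions were apart only in 10-week mutants (-0.46 ± 0.12, limma adjusted p = 0.0135). Lpl, lipoprotein lipase, was not called in any condition (-0.36, 0.24 and 0.14), and its signals ran from 189.7 to 319.5 over all arrays.

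**Figure D3:**
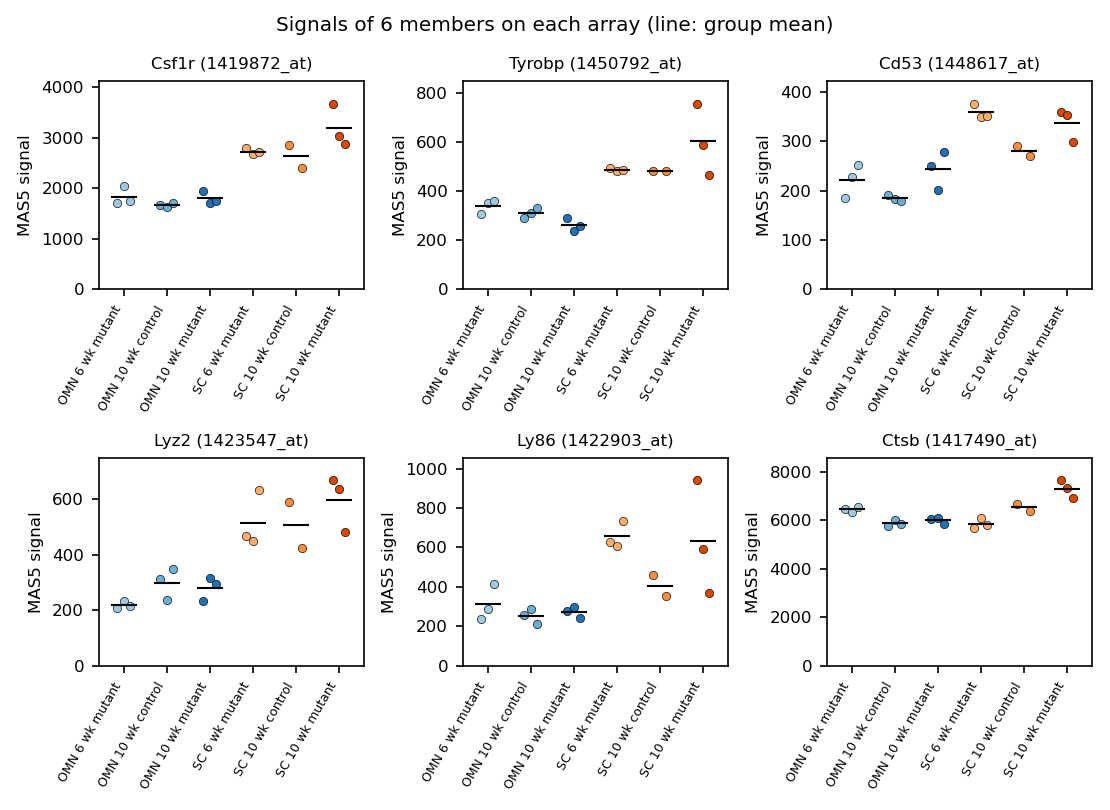
Signals of Csf1r, Tyrobp, Cd53, Lyz2, Ly86 and Ctsb on each array (points) with the group mean (line). Within each condition the oculomotor points lie below the spinal cord points for the first 5 genes, and for Ctsb the 6-week spinal cord points (5691 to 6076) lie below the later ones.

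Regional counts were set beside genes of other cells, where 19.1% of all genes were called lower on average. The 6 meningeal fibroblast genes were all called lower in the oculomotor nucleus on average (median -1.92), with summed signals of 1222 to 1820 there and 3792 to 7656 in spinal cord. Border macrophage genes, of macrophages outside the tissue proper, summed to 625 to 831 and to 791 to 1083, with 8 of 8 on the array and 2 of 3 tested called lower (F13a1 -0.56 and Pf4 -0.53). Neutrophil and monocyte genes, with 6 of 8 on the array, summed to 389 to 645 and to 844 to 1514. Of these Ngp was called lower (-0.84 ± 0.11), and without the filter S100a8 and S100a9 had -1.62 ± 0.15 and -1.77 ± 0.20. The red cell gene Alas2 had -1.40 ± 0.22. Lymphocyte genes were all below the filter, with sums of 189.6 to 391 and 285 to 411. None of these lists had a gene at 0, and their part in the regional differences of the members was not tested. The 6 endothelial genes had 0 calls in limma, 0 at an unadjusted p under 0.05, and a median of -0.11. Oligodendrocyte genes were called lower for 6 of 6 (median -0.49).

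Of the tested microglial genes outside the set, 5 of 7 homeostatic and 2 of 8 activation genes were called lower. Averaged over the conditions, 1545 of 8072 genes tested (19.1%) were called lower and 1599 higher, so 2 of 8 is near the share of all genes. Of 14 other homeostatic microglia genes 9 were on the array and 7 were tested, and 5 were called lower on average (median -0.45). Among them were the purinergic receptor P2ry12 (-0.38 ± 0.07), the membrane protein Tmem119 (-0.45 ± 0.07), the receptor Tgfbr1 (-0.55 ± 0.07) and Selplg (-0.46 ± 0.08). Of 10 tested signalling partners 4 were called lower and 3 higher. The Csf1r ligand Csf1 was lower (-0.56 ± 0.08), as were the leukocyte actin bundler Lcp1 (-1.01 ± 0.10) and Arhgdib (-0.54 ± 0.08). The ligands that restrain microglia and phagocytes, Cd200 (0.80 ± 0.07) and Cd47 (0.46 ± 0.06), were higher. Of 8 other tested activation genes Cd9 was lower (-0.72 ± 0.07) and so was Csf1, which is on both lists, while 2 were called higher, among them Apoe (0.21 ± 0.08).

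Between genotypes at 10 weeks, Cx3cr1 was the member that differed, and it was higher in mutants. Its oculomotor signals were 254, 360.4 and 298 in controls, 706, 605 and 606 in 10-week mutants and 647, 591 and 593 in 6-week mutants. Its spinal cord signals were 422 and 332 in controls, 654, 874 and 756 in 10-week mutants and 892, 548 and 687 in 6-week mutants. Every control array lay below every mutant array, in both regions and at both mutant ages. No control of 6 weeks was measured.

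In the oculomotor nucleus the difference, mutant minus control, was 1.02 ± 0.16 (limma adjusted p = 0.00327, 3 arrays against 3). Cx3cr1 was thus 1 of 23 members called higher, where 0.805% of all genes were. It stayed called without each array in turn, with values of 0.91 to 1.14. In spinal cord it was 0.97 ± 0.18 and missed the threshold (adjusted p = 0.0881), with 2 control arrays. It passed without 6-week mutant spinal cord replicate 1 (0.0302) or 2 (0.0418), or 10-week mutant spinal cord replicate 1 (1.07, adjusted p = 0.0211). The genotype difference of Cx3cr1 was not shown to differ between regions (0.06 ± 0.24).

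The second Cx3cr1 probe set was dimmer and did not repeat this in the oculomotor nucleus. Its signals there were 85.5, 75.7 and 132 in controls, 119, 83.8 and 140.0 in 10-week mutants and 138, 84.6 and 79.6 in 6-week mutants. In spinal cord they were 112 and 98.1, 157, 221 and 176, and 206, 238 and 162. Groups overlapped in the oculomotor nucleus and did not in spinal cord. The differences between 10-week genotypes were 0.19 ± 0.23 and 0.68 ± 0.26, and neither was called without the filter (adjusted p 0.830 and 0.345 in limma). Over the 17 arrays the log2 values of both probe sets correlated at 0.565, as a description of arrays that share groups.

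**Figure D4:**
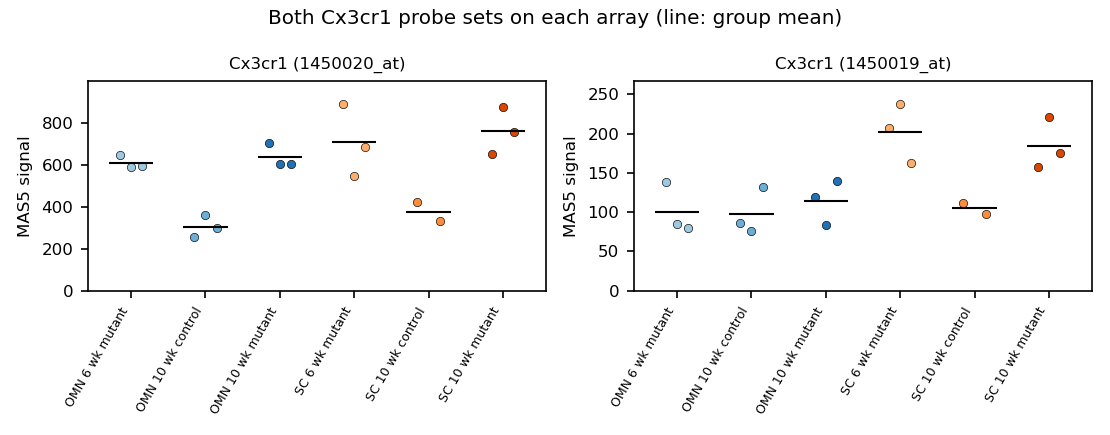
Signals of both Cx3cr1 probe sets on each array (points), with the group mean (line) and a separate linear axis for each probe set. In the left panel, the brighter probe set, all control arrays (254 to 422) lie below all mutant arrays (548 to 892). In the right panel the oculomotor groups overlap.

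The other members had small genotype differences in the oculomotor nucleus. The median of the 23 was 0.06, with 14 above 0, and 2 had an unadjusted p under 0.05, as did 12.5% of all genes. The second was Cd53, at 0.35 ± 0.13 (adjusted p = 0.211 in limma).

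In spinal cord all 23 tested members had a positive difference, mutant minus control, but none was called by limma, where 0.0248% of all genes were called. The median was 0.27 for the members and 0.01 for all genes, of which 52.3% were positive. Without Fcgr3, tested only through this mutant group, all 22 were positive and the median was 0.27. At an unadjusted p under 0.05 there were 8 members, against 11.3% of all genes. Arrays did not overlap for 11 members, all higher in mutants, against 15% of all genes. Both counts were taken with Fcgr3 kept in, and it is among the 11. After Cx3cr1 the largest differences other than that of Fcgr3 were those of Fcgr2b (0.55 ± 0.20), Ly86 (0.53 ± 0.27) and Cd68 (0.49 ± 0.18). For Fcgr2b and Ly86 mutant replicate 1 was the highest array, and a Ly86 mutant array fell between the controls. The dimmer Fcgr2b probe sets had means, mutant against control, of 96.4 against 95.1, 108 against 109 and 110 against 68.0. Without the filter all 34 members were above 0. In the same comparison the 7 astrocyte genes were all above 0 (median 0.13), as were the 4 genes of midbrain monoamine neurons (median 0.22). The red cell gene Alas2 had -0.96 ± 0.41 with arrays that did not overlap. None of these was called by limma, Aldoc and Alas2 had an unadjusted p under 0.05, and their part in the members' shift was not tested. Beside the red cell gene, medians were below 0 for pituitary (-0.02), endothelial (-0.08), meningeal (-0.10), motor neuron (-0.11) and spinal position genes (-0.17).

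The 23 differences share the same 2 control arrays and the same 3 mutant arrays, so they are not 23 independent signs. Replicate 1 of 10-week mutant spinal cord carried the highest signal of 19 of the 34 members, against 10.8% of all genes past the filter. The 34 also hold members below the filter. Without that replicate 1 all 23, Fcgr3 among them, stayed above 0 and the median was 0.17. The difference between regions was called for 0 of 23 members in limma, with 2 at an unadjusted p under 0.05 against 5.71% of all genes. Its median, oculomotor nucleus minus spinal cord, was -0.17, and -0.10 without that spinal cord replicate 1. Fcgr3, tested only through 10-week mutant spinal cord, is kept in these counts and medians.

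**Figure D5:**
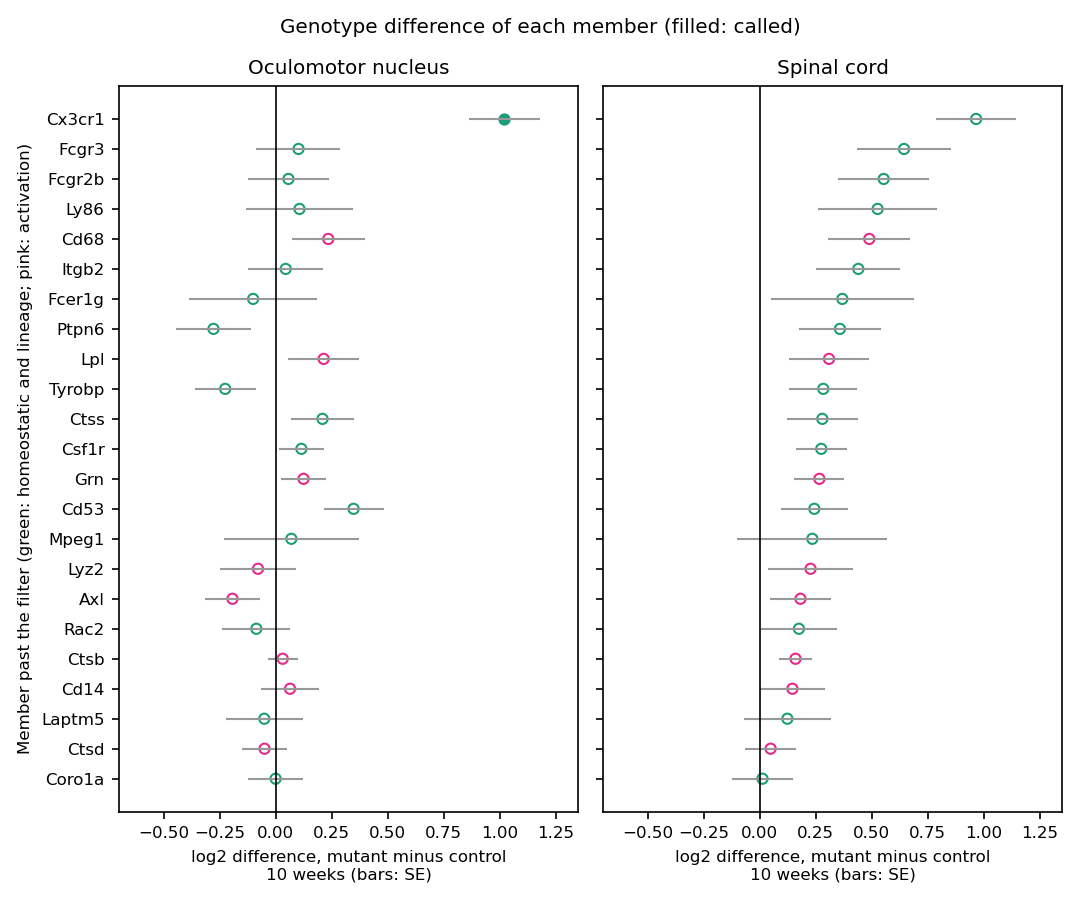
Log2 differences, mutant minus control at 10 weeks, of the 23 tested members in each region, with the SE as a bar, green for homeostatic and pink for activation members. Cx3cr1 at 1.02 in the oculomotor nucleus is the filled, called point, and all spinal cord points lie right of 0.

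Among genes outside the set, the ferritin chain gene Fth1 (0.57 ± 0.13), the oligodendrocyte gene Cnp (0.52 ± 0.12), the astrocyte gene Aldoc (0.43 ± 0.09) and the serotonin transporter gene Slc6a4 (0.82 ± 0.17), 1 of 4 genes of midbrain monoamine neurons, were also called higher in mutant oculomotor nucleus. Of these monoamine genes Ddc had 0.50 ± 0.15, Th 0.04 ± 0.13 and Slc6a3 -0.31 ± 0.17, and their part in the Cx3cr1 difference was not tested. Without the filter Cx3cr1 stayed called (adjusted p = 0.0114 in limma) and Fth1, Cnp, Aldoc and Slc6a4 did not (0.0564 to 0.103). Of the 7 other homeostatic microglia genes none was called there by limma, 1 had an unadjusted p under 0.05, and their median was -0.04. In spinal cord their median was 0.12, again with 0 called and 1 at an unadjusted p under 0.05. The pituitary list summed to 6202 on control oculomotor replicate 3 and to 22173 on 10-week mutant oculomotor replicate 2, against 405 to 1449 on the other 7 oculomotor arrays. The Cx3cr1 difference was called also without these 2 arrays.

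From 6 to 10 weeks in mutant spinal cord, Ctsb, a lysosomal cysteine protease, rose. Its brightest probe set gave 5691, 6076 and 5785 at 6 weeks and 7647, 7315 and 6920.5 at 10 weeks in mutants, with 6668 and 6384 in controls. In the oculomotor nucleus it gave 6474, 6322 and 6549.7, then 6055, 6094 and 5845 in mutants, with 5767, 5991 and 5854 in controls. The ages did not overlap in either region, and they moved in opposite directions. The spinal cord difference, 10 minus 6 weeks, was 0.32 ± 0.07 (limma adjusted p = 0.0218), and the oculomotor one was -0.10 ± 0.07 (adjusted p = 0.691).

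The second brightest Ctsb probe set gave 4449, 4063 and 4444 in 6-week mutant spinal cord and 6560.2, 6185 and 6198 at 10 weeks. Control spinal cord gave 6622 and 5984, which lay among the 10-week mutant values. In 6-week mutants this probe set was called higher in the oculomotor nucleus (0.40 ± 0.08). Its age difference was 0.55 ± 0.08 in spinal cord (limma adjusted p = 0.00397) and -0.02 ± 0.08 in the oculomotor nucleus. The difference between regions was called, at -0.56 ± 0.11 (limma adjusted p = 0.0459), and for the brightest probe set it was not, at -0.42 ± 0.10 (adjusted p = 0.0701). The other 2 Ctsb probe sets had age differences of -0.07 and 0.08 in spinal cord.

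Ctsb was the 1 tested member called with age in spinal cord, where 1.62% of all genes were called higher and 2.66% in either direction. The median of the 23 was 0.22, with 19 above 0, while the median of all genes was 0.02. Without Fcgr3 the members' median was 0.21, with 18 of 22 above 0. A median above 0 was not particular to the members. Neuron (0.16, 6 of 6 above 0), midbrain monoamine (0.24), other activation (0.24) and endothelial genes (0.15) were among the lists that had it. Medians were below 0 for pathway partners (-0.04), spinal position (-0.04), motor neuron (-0.06), border macrophage (-0.07), pituitary (-0.77) and meningeal genes (-0.78). Rac2 had 0.48 ± 0.15 (adjusted p = 0.0906 in limma) and passed without 10-week mutant spinal cord replicate 3 (0.0377). Without 10-week mutant spinal cord replicate 1 no member was called, Ctsb had 0.28 (adjusted p = 0.0690), and the median was 0.16. Ctsb also lost its call without 6-week mutant spinal cord replicate 1 (0.0795) or 3 (0.0557). Over the same ages 4 of 6 meningeal genes were called lower in spinal cord, among them Col3a1 (-1.09 ± 0.17), and the part of this change in tissue content was not tested.

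In the oculomotor nucleus no member was called with age by limma, where 0.0372% of all genes were. At an unadjusted p under 0.05 there were 3 members (8.85% of all genes), Ptpn6 and Tyrobp lower (-0.52 ± 0.17 and -0.34 ± 0.14) and Lpl higher (0.36 ± 0.16). The median was -0.01. For the difference in age change between regions 0 of 23 were called by limma, against 0.409% of all genes, with 6 members (16% of all genes) at an unadjusted p under 0.05.

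Some dim activation genes had their highest signals in 10-week mutant spinal cord. Cst7, which encodes the protease inhibitor cystatin F, gave 48.3, 61.7 and 63.8 there, against 17.5 to 24.1 in 6-week mutant spinal cord and 18 and 8.9 in controls. Its oculomotor signals were 7.9 to 36.0. The lowest 10-week mutant spinal cord array was above all others, at levels close to the added 25. Its genotype difference in spinal cord was 1.11 ± 0.25 and its age difference 0.86 ± 0.22. Neither was called by limma without the filter (adjusted p 0.142 and 0.0724).

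Itgax, the integrin chain CD11c, gave 188, 126 and 102 in 10-week mutant spinal cord and 67.3, 42.1 and 53.9 in 6-week mutants. Control spinal cord gave 108 and 70.9, which overlapped the 10-week mutants, and the oculomotor arrays gave 52.5 to 119.7. Without the filter its age difference in spinal cord was 1.02 ± 0.23. The receptor gene Clec7a (dectin-1) gave 258, 158 and 142 in 10-week mutant spinal cord, 148 and 124 in controls and 128, 156 and 164 in 6-week mutants, so these groups overlapped. In 10-week mutant oculomotor nucleus it gave 64.4, 82.9 and 127, a regional difference of -0.85 ± 0.22 without the filter. Values per array of Itgax and Clec7a are given because their signals were seen to be high in 10-week mutant spinal cord. Their differences that involve this group are therefore a description only, and no test of them is given here.

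Trem2 showed no common pattern. Its probe sets gave 6.6 to 133 and 15.9 to 39.8, and their mean regional differences had opposite signs, 0.65 ± 0.24 and -0.19 ± 0.08. Neither was called without the filter (adjusted p 0.0591 and 0.0916 in limma).

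By group mean, 10-week mutant spinal cord was the highest of the 3 spinal cord groups for 28 of 34 members (82.4%), against 36.9% of all genes. This held for 17 of 21 homeostatic and 11 of 13 activation members. The all-gene shares are over genes past the filter, and of the members past it the count was 18 of 23 (78.3%). Without replicate 1 of that group, left out after its signals were seen, it was 26 of 34 (76.5%), against 36.2% of all genes. Past the filter it was then 19 of 23. Fcgr3, tested only through 10-week mutant spinal cord, is in both counts past the filter, so its place there is a description only. Control spinal cord was the highest for 1 of 34. In the oculomotor nucleus the highest group was 6-week mutants for 18 of 34 members, and 11 of 23 past the filter, against 38.8% of all genes. Summed over the 34 members, signals ran from 19385 to 21519 in the oculomotor arrays, 23489 to 25395 in control and 6-week mutant spinal cord, and 26187 to 32104 in 10-week mutant spinal cord. The brightest probe sets weigh most in these sums, above all that of Ctsb, with a mean signal of 6320 over the arrays.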

How the data were processed

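Total RNA of 18 samples was labelled and hybridised to Affymetrix mouse 430A arrays, and the authors' deposited values are intensity signals from Affymetrix MAS5, per the submitters' processing notes and the labels' design text. The deposited signals are linear and scaled to trimmed means (2% trimmed) of 500.13 to 500.16 on the 17 arrays used. The version is not given in the sources used here.

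Of 22690 probe sets 64 controls were removed. Names came from the array's probe annotation, updated through gene identifiers (GRCm38.p6): 20380 probe sets had 1 symbol, 691 several and 1555 none. After adding 25 and taking log2, the lowest 40% by mean were left out. The 6 group means were estimated in R 4.3.3 by limma 3.58.1 (eBayes with a trend, residual degrees of freedom 11), with Benjamini-Hochberg adjustment within each of 10 contrasts. Regional comparisons share arrays with genotype and age comparisons. The steps were tested on simulated data.

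Signals per array were given for the marker genes, members called with genotype or age, and in each role the 2 members with the smallest p in the mean regional contrast. The members, lists and rules were chosen with earlier results of these data known. Same-numbered arrays did not deviate together (median correlation 0.02 over 40 pairs). Alternatives were other normalizations, offsets, filters, probe sets, fits and sets of arrays.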

Additional observations from a re-analysis of the deposited data

Results flagged for a closer look

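The age difference of the second brightest Ctsb probe set differed between the regions by a test of the difference itself: it was -0.56 (oculomotor nucleus minus spinal cord, log2). For the brightest Ctsb probe set all 3 mutant arrays of 10 weeks lay below those of 6 weeks in the oculomotor nucleus (-0.10) and above them in spinal cord (0.32), while the test of the difference gave an adjusted p of 0.0701 in limma. For Fcer1g, with 3 arrays against 3 in the oculomotor nucleus and 3 against 2 in spinal cord, all mutant arrays lay below the controls in the former (-0.10) and above them in the latter (0.37). The difference of -0.47 ± 0.43 did not pass the test (adjusted p = 0.868 in limma).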

How the results depend on the processing

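Leaving out 1 array at a time gave 8 to 11 called members for the regional difference in 6-week mutants, 2 to 7 in controls, 12 to 18 in 10-week mutants and 14 to 18 on average. It gave 1 to 1 for genotype in the oculomotor nucleus, 0 to 1 in spinal cord, 0 to 2 for age in spinal cord, and 0 to 0 for age in the oculomotor nucleus and both differences between regions. With the lowest 60% of probe sets left out, 13 members were tested and 6, 3, 9 and 8 were called in these regional comparisons. With all 18 arrays the regional counts were 1, 1, 1 and 8, the genotype count in the oculomotor nucleus and the age count in spinal cord were 0, and the mean regional difference of Ctsd reversed to 0.17. A rule of every pairwise comparison in 1 direction and over 2-fold gave 3, 0 and 4 for the regions in 6-week mutants, controls and 10-week mutants, 1 for genotype in spinal cord and 0 for age in spinal cord. The age count in spinal cord was 0 with quantile normalization, median centring or its own arrays alone, and 2 with no filter, which tests 34 members. The age difference between regions had 1 call when each gene was read by its probe set of largest variance. With the replicate number as a block, the regional counts were 11, 6, 17 and 16, and the others were as reported, so that the pairing changed no count by over 1.5 times. The cause of these changes was not tested, beyond the fewer members or arrays that a setting holds. No share of all genes is given beside the counts of this paragraph, so they describe the members only. With each value under each setting counted as 1 case, other values of the members kept their side in 6179 cases. They weakened in 96, strengthened in 32 and moved in 32. The cases include left-out arrays that are not part of the contrast, where the log2 value cannot change. These counts are thus no measure of robustness. Dim members, 11 of 34, limit the set, and 2 control spinal cord arrays limit the genotype comparison there.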

Other observations

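Probe sets of 1 member did not always follow each other. Over the 17 arrays the log2 values of the brightest Laptm5 probe set correlated with the other 2 at 0.20 and 0.13, those of Fcgr2b at -0.33 to 0.09, and those of Trem2 at -0.17. For Csf1r they were 0.84 and 0.93 and for Grn 0.80 and 0.65. These are descriptions over arrays that share groups. A second Ptpn6 probe set, below the filter, had a mean regional difference of -0.73 ± 0.19, where the tested one had -0.24 ± 0.10, and a second Irf8 probe set had -0.62 ± 0.16.

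Inflammatory signal genes were mostly too dim to test. All 8 listed were on the array and 2 passed the filter, Il1b (0.07 ± 0.09) and Tgfb1 (-0.27 ± 0.10) in the mean regional comparison, of which Tgfb1 was called lower (limma adjusted p = 0.0481). Their summed signals were 453 to 672 in the oculomotor arrays and 544 to 758 in spinal cord.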
